A study of Mus musculus with 4 samples.

Results

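Ms4a1, Cd37, Cd22, Cd72, Bank1, Cr2, Cd55 and Fcer2a encode surface proteins and 1 adaptor, grouped here as later B cell genes. They were taken by symbol from a table of 24411 genes, and all 8 were found and all 8 passed the filter on low counts. RNA was sequenced from bone marrow pro-B cells of C57BL/6 mice, the early precursors in which antigen receptor genes are rearranged, sorted as B220+ CD43+ HSA+ cells. The 2 knockout mice (numbers 51 and 63) were Tnpo3fl/fl mb1Cre, and the 2 control mice (numbers 55 and 69) were Tnpo3+/+ mb1Cre. Both genotypes thus carried mb1Cre, which expresses Cre recombinase from the Cd79a locus and so acts in the B lineage from its early stages, and the groups differed in whether Tnpo3 was floxed. Tnpo3 encodes transportin 3, a receptor that imports splicing factors and other cargo into the nucleus. Age and sex are not given in the labels.

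Some of these proteins are known as products that accumulate as B cells mature. CD20 (Ms4a1), CD21 (Cr2) and CD23 (Fcer2a) mark B cells that carry a surface antigen receptor, and CD21 and CD23 separate the mature subsets of the spleen. CD22 and CD72 restrain antigen receptor signalling through tyrosine motifs in their tails that recruit the phosphatase SHP-1, whereas CD21 lowers the threshold for activation as part of a coreceptor complex. BANK1 is a cytoplasmic scaffold that joins the kinase LYN to calcium release, CD37 is a tetraspanin that organises membrane proteins, and CD55 protects cells from complement.

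The libraries held 26211372 to 40647384 counts each. Levels are given as CPM, counts relative to library size, after scaling by TMM, and 3 counts in a library correspond to 0.0743 to 0.113 CPM. Tnpo3 measured 159 CPM in control 55, 148 in control 69, 79.7 in knockout 51 and 68.8 in knockout 63, so transcript counted over the whole gene remained in both knockout libraries. The fit gave it a log2 fold change of -1.05 ± 0.14 (SE; adjusted p of 0.0108 by edgeR), or -0.94 with an adjusted p of 0.0603 without knockout 63. Of the sort markers, Ptprc (the gene of B220) did not pass by edgeR (adjusted p of 0.168), though it was higher without control 55 (adjusted p of 0.00908) and with sex as a block (0.0355). Spn (CD43) was at 210 ± 72.4 and 420 ± 33.9 CPM, with an adjusted p of 0.0492 that became larger than 0.05 with total counts (0.0541) and without control 55 (0.0528), knockout 51 (0.142) or knockout 63 (0.105). Cd24a (HSA) fell from 2095 ± 268 to 536 ± 66.9 CPM (adjusted p of 0.00725). Each library came from its own mouse, and the tests rest on the spread between 2 mice per genotype. Of a list of 14 pro-B identity genes all 14 were measured above the filter, and their summed level was 9051 CPM in control 55, 10917 in control 69, 3502 in knockout 51 and 2832 in knockout 63. In these bulk libraries, fewer cells of a type and less RNA per cell cannot be told apart.

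All 8 genes fell in the knockout. By edgeR's quasi-likelihood test at an adjusted p under 0.05, 8 of 8 were lower, against 10.9% of the 13507 genes tested (22.2% were called in either direction). Both control libraries lay above both knockout libraries for 8 of 8, which was the case for 34.6% of tested genes. A fall of at least 4-fold was called for 7 of 8, the exception being Cd37, against 4.16% of tested genes. The median log2 fold change was -2.89 over the 8 genes and -0.02 over all genes tested. Without knockout 51, however, 3 of the 8 passed (Ms4a1, Cd72 and Cd55), and 7 passed without knockout 63 or without control 55. In those fits the 8 log2 fold changes kept their negative sign, and 1616 and 1277 genes in all were called without knockouts 51 and 63, against 2992 with all libraries.

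**Figure D1:**
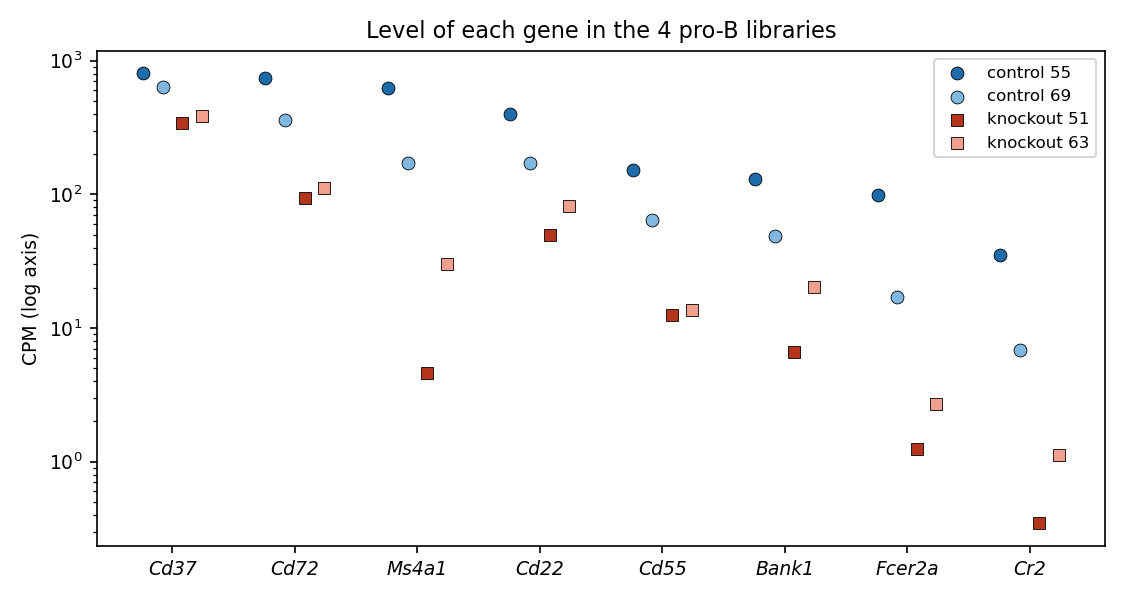
CPM of the 8 genes (log axis) in controls 55 and 69 (circles) and knockouts 51 and 63 (squares), 1 point per library. In each gene both circles lie above both squares, from Cd37 at 806 and 637 against 339 and 385 CPM to Cr2 at 35.2 and 6.84 against 0.347 and 1.13 CPM.

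The size of the fall differed between the genes. Fcer2a, Cr2 and Ms4a1 had log2 fold changes of -4.91 ± 0.97, -4.87 ± 1.01 and -4.54 ± 1.09 (SE), and differed from each other by less than 1 SE. Cd55, Bank1, Cd72 and Cd22 followed at -3.05 ± 0.43, -2.74 ± 0.69, -2.41 ± 0.37 and -2.12 ± 0.46, and neighbours in this order again lay within 1 SE. The gap between Ms4a1 and Cd55 was smaller than their standard errors together. Cd37, at -0.99 ± 0.19, changed less than Cd22 by more than both standard errors together. Of all genes tested, 0.659% had a more negative fold change than Fcer2a, 4.94% than Cd22 and 12.1% than Cd37.

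**Figure D2:**
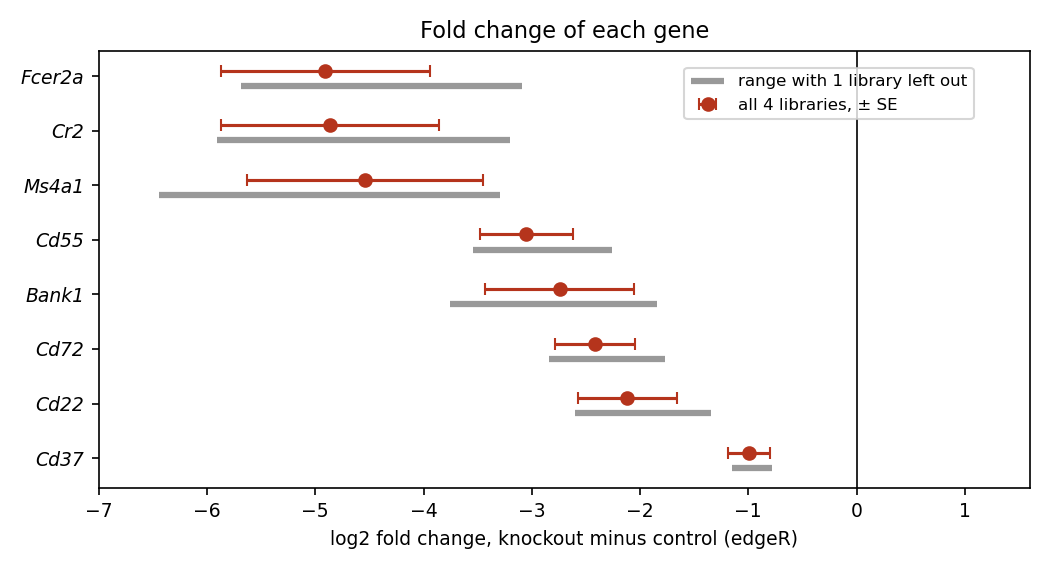
Log2 fold change of each gene, knockout minus control, from edgeR (points, with bars of ± 1 SE), and the range of the same value when 1 of the 4 libraries is left out (grey lines). All values lie below 0, with Cd37 nearest to it, and the widest range is that of Ms4a1, from -6.45 to -3.29.

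Upstream sequences are shown for 5 of the genes called at least 4-fold lower, because regulators of B cell stages are known to act through such stretches. RefSeq (GRCm38.p6) gave upstream windows of 250 bases for 7 of the 8 genes, Ms4a1 being the exception. Each stretch runs 5′ to 3′ on the strand of the gene, and all 5 lie on the minus strand, Cr2 at chr1:195176881-195176969, Fcer2a at chr8:3694175-3694424, Cd22 at chr7:30879029-30879148, Cd72 at chr4:43454627-43454746 and Bank1 at chr3:136326142-136326316. Fcer2a is given as the 250 bases before its start, and Cd22 and Cd72 as the 120 bases before theirs, which lie inside the RefSeq span of the gene because other starts are annotated further upstream. For Cr2 and Bank1 that span reaches into the window, and only the part beyond it is given, from 250 to 162 and from 250 to 76 bases before the start. Capitals mark matches to motifs searched on both strands.
Cr2: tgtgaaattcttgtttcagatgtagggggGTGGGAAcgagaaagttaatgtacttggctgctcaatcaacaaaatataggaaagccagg
Fcer2a: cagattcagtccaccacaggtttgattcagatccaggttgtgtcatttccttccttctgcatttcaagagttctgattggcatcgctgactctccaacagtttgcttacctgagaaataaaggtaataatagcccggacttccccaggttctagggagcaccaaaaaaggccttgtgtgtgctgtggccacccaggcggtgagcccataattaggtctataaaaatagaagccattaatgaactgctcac
Cd22: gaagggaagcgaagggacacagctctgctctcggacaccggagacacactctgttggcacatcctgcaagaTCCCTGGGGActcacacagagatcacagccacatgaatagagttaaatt
Cd72: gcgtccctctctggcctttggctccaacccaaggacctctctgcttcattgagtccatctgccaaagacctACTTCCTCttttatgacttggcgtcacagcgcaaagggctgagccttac
Bank1: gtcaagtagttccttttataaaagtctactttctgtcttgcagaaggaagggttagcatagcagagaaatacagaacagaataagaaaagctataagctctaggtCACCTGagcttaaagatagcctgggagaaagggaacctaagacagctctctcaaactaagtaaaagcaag

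The motifs were GTGGGAA (bound by RBPJ, the factor through which Notch receptors act), CAGGTG and CAGCTG (E-boxes, bound by E proteins), GAGGAAGT (an ETS site of the kind bound by PU.1), TCCC, any 2 bases and GGGA (the palindrome bound by EBF1) and ATGCAAAT (the octamer bound by OCT factors). In the 250 bases before the start, Cr2 held GTGGGAA 221 to 215 bases before it and an E-box (CACCTG on this strand) 88 to 83 bases before it, outside the stretch shown. Cd22 held the EBF1 palindrome 49 to 40 bases before its start, Cd72 the ETS letters 49 to 42 bases before, and Bank1 an E-box 145 to 140 bases before. Fcer2a held none of these letters in the window shown, and neither did Cd55 in its own window. Cd37 held the ETS letters 25 to 18 bases before its start and an E-box 175 to 170 bases before it, Cd22 held an E-box 245 to 240 bases before its start, outside the stretch shown, and a second Fcer2a window, upstream of another annotated start, held both E-box spellings. Among 32851 RefSeq windows of the same length, 5.42% held GTGGGAA, 17.2% CAGGTG, 13.0% CAGCTG, 2.44% GAGGAAGT, 0.779% the EBF1 palindrome and 1.6% the octamer. The 2 E-box spellings are distinct and were counted separately. A match is a description of the letters and not a measured site. The genes of the factors themselves were called in both directions. Ebf1 fell (648 CPM in control 55, 757 in control 69, 157 in knockout 51 and 137 in knockout 63, adjusted p of 0.00497 by edgeR). Of the E protein genes, Tcf3 fell (log2 fold change of -1.64, adjusted p of 0.0149), Tcf4, which is also on the plasmacytoid list, rose (1.90, 0.00782) and Tcf12 did not pass (-0.14, 0.715). Spi1, the gene of PU.1, fell by 0.59 on the log2 scale (adjusted p of 0.0322, or 0.0835, 0.152 and 0.211 without control 55, knockout 51 or knockout 63). The OCT factor genes Pou2f1 (-0.91, 0.0189) and Pou2f2 (-1.19, 0.0451) fell, and Pou2f1 missed the threshold without knockout 51 (0.0575) or knockout 63 (0.112). Pou2f2 missed it under 6 of 12 alternatives, at 0.0501 to 0.14. Rbpj and Notch2 did not pass (log2 fold changes of 0.39 and 0.64, adjusted p-values of 0.22 and 0.19). Without control 55, Notch2 passed at 1.23 (adjusted p of 0.00285).

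CD20 and CD37 cross the membrane several times. Ms4a1 (chromosome 19, 11249679 to 11266149) measured 630 CPM in control 55, 172 in control 69, 4.58 in knockout 51 and 30.0 in knockout 63. The genotypes did not overlap, yet each pair of mice was far apart, with control 55 above control 69 and knockout 63 above knockout 51. The means were 401 ± 324 and 17.3 ± 17.97 CPM (SD, n = 2), a 23.3-fold fall in the fit with an adjusted p of 0.0384 by edgeR. It passed under all 12 alternatives, at adjusted p-values of 0.000457 to 0.0446. The tetraspanin gene Cd37 (chromosome 7, 45233632 to 45239340) was the least changed and measured 806 CPM in control 55, 637 in control 69, 339 in knockout 51 and 385 in knockout 63. Its means of 721 ± 119 and 362 ± 32.3 CPM differed 1.99-fold with an adjusted p of 0.0235 by edgeR, or 0.115 without knockout 51 and 0.0741 without knockout 63.

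The inhibitory receptor genes Cd22 and Cd72 fell by amounts within 1 SE of each other. Cd22 (chromosome 7, 30865404 to 30880342), which encodes a lectin that binds sialic acid, measured 399 CPM in control 55, 171 in control 69, 49.8 in knockout 51 and 81.8 in knockout 63. The lower control was 2.09-fold above the higher knockout. The fall from 285 ± 161 to 65.8 ± 22.7 CPM had an adjusted p of 0.0307 by edgeR, and of 0.0866 without knockout 51. Cd72 (chromosome 4, 43447724 to 43455102), which encodes a C-type lectin receptor, measured 741 CPM in control 55, 361 in control 69, 94.4 in knockout 51 and 112 in knockout 63. Here the knockouts lay close together and the controls did not. The means were 551 ± 269 and 103 ± 12.7 CPM, with an adjusted p of 0.0139 by edgeR, and the gene passed under all 12 alternatives.

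Bank1 (chromosome 3, 136053363 to 136326141), the adaptor gene, measured 131 CPM in control 55, 49.2 in control 69, 6.66 in knockout 51 and 20.3 in knockout 63. As for Ms4a1, the higher library of each genotype was control 55 and knockout 63. Its fall from 89.9 ± 57.5 to 13.5 ± 9.67 CPM had the highest adjusted p of the 8 genes, 0.0434 by edgeR. The call was lost without control 55 (adjusted p of 0.0501) and without knockout 51 (0.0791). Of the partners BANK1 is known to bring together, Lyn measured 462 CPM in control 55, 269 in control 69, 228 in knockout 51 and 275 in knockout 63, and the phospholipase gene Plcg2 measured 428 and 372 against 365 and 407 CPM. Neither passed by edgeR (adjusted p of 0.23 and 0.84), and for Lyn and for Plcg2 the genotypes overlapped. Among calcium release channel genes, Itpr1 rose (log2 fold change of 1.82, adjusted p of 0.00854 by edgeR). Itpr2 fell (-0.78, 0.0326) and Itpr3 did not pass (-0.37, 0.297). Without control 69, Lyn passed at -0.88 (adjusted p of 0.0185).

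The complement genes fell as well. Cr2 (chromosome 1, 195136811 to 195176880), which encodes a receptor for complement fragments of C3, was the lowest of the 8 and measured 35.2 CPM in control 55, 6.84 in control 69, 0.347 in knockout 51 and 1.13 in knockout 63. The knockout values rest on 14 and 34 counts. The means were 21.0 ± 20.1 and 0.738 ± 0.553 CPM, with an adjusted p of 0.0274 by edgeR, 0.068 without knockout 51 and 0.0698 with limma-voom. Cd55 (chromosome 1, 130429798 to 130465009) encodes decay-accelerating factor, which dismantles complement convertases, and measured 152 CPM in control 55, 64.0 in control 69, 12.4 in knockout 51 and 13.7 in knockout 63. Its fall from 108 ± 62.4 to 13.1 ± 0.917 CPM had the lowest adjusted p of the 8, 0.0121 by edgeR, and it passed under all 12 alternatives. Its paralog Cd55b was not tested, with 2 counts over the 4 libraries, though reads that align to both genes may have been left out of either.

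Fcer2a (chromosome 8, 3680280 to 3694174), which encodes the low-affinity receptor for IgE, measured 99.4 CPM in control 55, 17.0 in control 69, 1.24 in knockout 51 and 2.69 in knockout 63. Control 55 was 5.85-fold above control 69, and control 69 was still 6.32-fold above the higher knockout. The means were 58.2 ± 58.3 and 1.96 ± 1.03 CPM, with an adjusted p of 0.0243 by edgeR, 0.066 without knockout 51 and 0.0837 with limma-voom. Per kilobase of annotated exon, Cd37 and Cd72 were the most abundant in the controls, at 205 ± 33.8 and 161 ± 78.5 CPM per kb. Ms4a1 (64.8 ± 52.3), Cd22 (56.6 ± 32.0), Cd55 (22.3 ± 12.9), Fcer2a (18.8 ± 18.8), Bank1 (12.004 ± 7.68) and Cr2 (2.59 ± 2.48 CPM per kb) followed, and neighbours in this order differed by less than the sum of their SDs. The genes share the same libraries, so these SDs do not judge the order. In both controls Cd37 lay above Cd72, Cd72 above Ms4a1, Cd22 above Cd55 and Bank1 above Cr2. The order of Ms4a1 and Cd22, of Cd55 and Fcer2a, and of Fcer2a and Bank1 changed between the controls. In the knockouts Cd37 remained first at 103 ± 9.17 CPM per kb, Cd72 (30.2 ± 3.72) and Cd22 (13.0 ± 4.49) came next, and Ms4a1 stood at 2.79 ± 2.90 CPM per kb.

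The 2 controls differed from each other in these genes. Control 55 was above control 69 for 8 of 8, by 1.26-fold for Cd37, by 2.05- to 2.65-fold for Cd72, Cd22, Cd55 and Bank1, and by 3.67-, 5.15- and 5.85-fold for Ms4a1, Cr2 and Fcer2a. All 8 ratios exceeded counting error, since the exact 95% interval for Cd37, the smallest, was 1.24 to 1.29. Over all tested genes the median ratio of these libraries was 0.9999, and 5.25% of genes were more than 2-fold higher in control 55. Knockout 63 was likewise above knockout 51 for 8 of 8, and for 7 of them, all but Cd55, the interval of the ratio excluded 1. The ratio was 6.55 for Ms4a1 (interval 5.58 to 7.71), 3.25 for Cr2 (1.70 to 6.56), 3.05 for Bank1 (2.64 to 3.54) and 2.17 for Fcer2a (1.51 to 3.15). It was 1.64 for Cd22, 1.19 for Cd72 and 1.13 for Cd37, and 1.105 for Cd55 (0.967 to 1.26). More than 2-fold higher in knockout 63 were 2.83% of all tested genes. These intervals compare single libraries and cover counting error only.

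**Figure D3:**
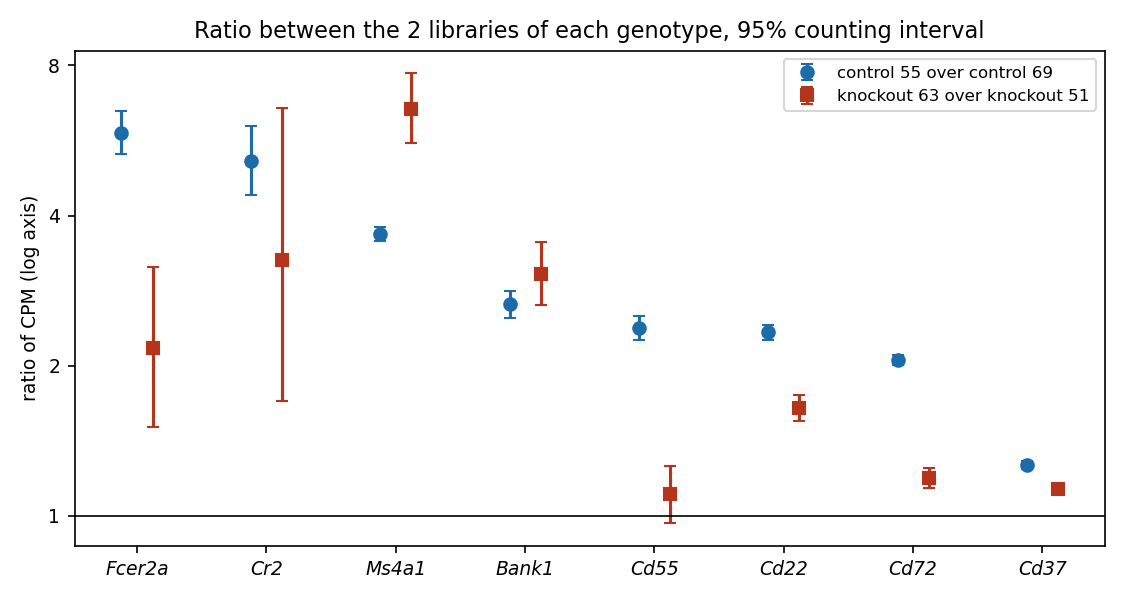
Ratio of CPM (log axis) between the 2 controls (circles, 55 over 69) and between the 2 knockouts (squares, 63 over 51), with exact 95% intervals of the counts. The control ratio runs from 1.26 for Cd37 to 5.85 for Fcer2a, and the knockout ratio peaks at 6.55 for Ms4a1.

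Xist, expressed in females, measured 1192 CPM in control 55 and 1713 in knockout 63, and the Y-linked Ddx3y 120 CPM in control 69 and 97.4 in knockout 51, which places 1 mouse of each sex in either genotype. Between the females the control was above the knockout by 21.0-fold for Ms4a1, 31.2-fold for Cr2, 37.0-fold for Fcer2a and 6.42-fold for Bank1. Between the males the same ratios were 37.5, 19.7, 13.7 and 7.38. Cd37 differed by 2.09-fold between the females and by 1.88-fold between the males. With sex as a block in edgeR, which leaves 1 residual degree of freedom, all 8 genes passed at adjusted p-values of 0.000457 to 0.00406. With 1 mouse per sex and genotype, sex cannot be told apart from any other difference between the mice.

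Other marker lists moved between the same libraries. The 17 measured plasmacytoid dendritic cell markers, genes of interferon-producing cells that also carry B220, summed to 3137 CPM in control 55, 1443 in control 69, 9418 in knockout 51 and 11896 in knockout 63. Of these 15 rose and 0 fell by edgeR, against 11.3% of tested genes that rose, and their median ratio of control 55 to control 69 was 3.58. They thus moved with the 8 genes between the controls and against them between genotypes. Siglech, a receptor gene of these cells, measured 194 CPM in control 55, 28.3 in control 69, 1262 in knockout 51 and 2305 in knockout 63 (its call was lost without knockout 63, adjusted p of 0.0721), and Bst2 measured 133 and 69.3 against 1324 and 1434 CPM. Pro-B identity genes had a median ratio of 0.865 between controls 55 and 69. Neutrophil and monocyte markers (14 of 15 in the table) summed to 5058 CPM in control 55, 4021 in control 69, 264 in knockout 51 and 76.7 in knockout 63, NK cell markers to 48.5 and 43.6 against 1168 and 270 CPM, and T cell markers to 91.9 and 87.2 against 1011 and 860 CPM. Of 13 T cell markers 8 rose and 0 fell by edgeR. Of their sum, Cd4 made up 590 CPM in knockout 51 and 516 in knockout 63. Cd8a (101 and 120 CPM), Thy1 (93.3 and 69.2), Cd247 (29.8 and 18.9) and Cd6 (8.45 and 10.7) also rose. Cd3e (5.99 and 0.631 CPM), Cd3d (14.9 and 1.16) and Cd3g (13.6 and 2.22), of the T cell receptor complex, were lower in knockout 63. Cd3e and Cd3d did not pass by edgeR (adjusted p of 0.0567 and 0.0808). Cd3g passed (0.0401), but not with limma-voom (0.117). In this list 4 of 13 genes were higher in knockout 63 than in knockout 51, Cd8a and Cd6 among them. Between the controls, 6 of 13 were higher in control 55, and the median ratio of control 55 to control 69 was 0.93. That ratio was 4.11 for Cd4 and 2.64 for Cd8a, against 1.13 for Cd3d and 0.81 for Thy1. Whether the Cd4 and Cd8a counts came from T cells was not tested. Conventional dendritic cell markers summed to 410 and 306 against 1376 and 1665 CPM, eosinophil and basophil markers to 310 and 150 against 4.21 and 4.78 CPM, erythroid markers to 141 and 153 against 61.3 and 33.6 CPM, with 4 globin genes at 0 in every library, and plasma cell markers to 1421 and 1332 against 848 and 1208 CPM. Car2, which did not pass by edgeR (adjusted p of 0.162), made up 64.8 and 94.7 against 58.7 and 27.8 CPM of the erythroid sum. Of 7 tested erythroid markers 6 fell, against 10.9% of tested genes. Irf4, also on the list of transcription factors, made up 707 and 489 against 121 and 93.3 CPM of the plasma cell sum. Of 8 plasma cell markers 2 fell (Irf4 and Slamf7), 1 (Xbp1) rose and 5 did not pass. The part of these cells in the values of the 8 genes was not tested.

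**Figure D4:**
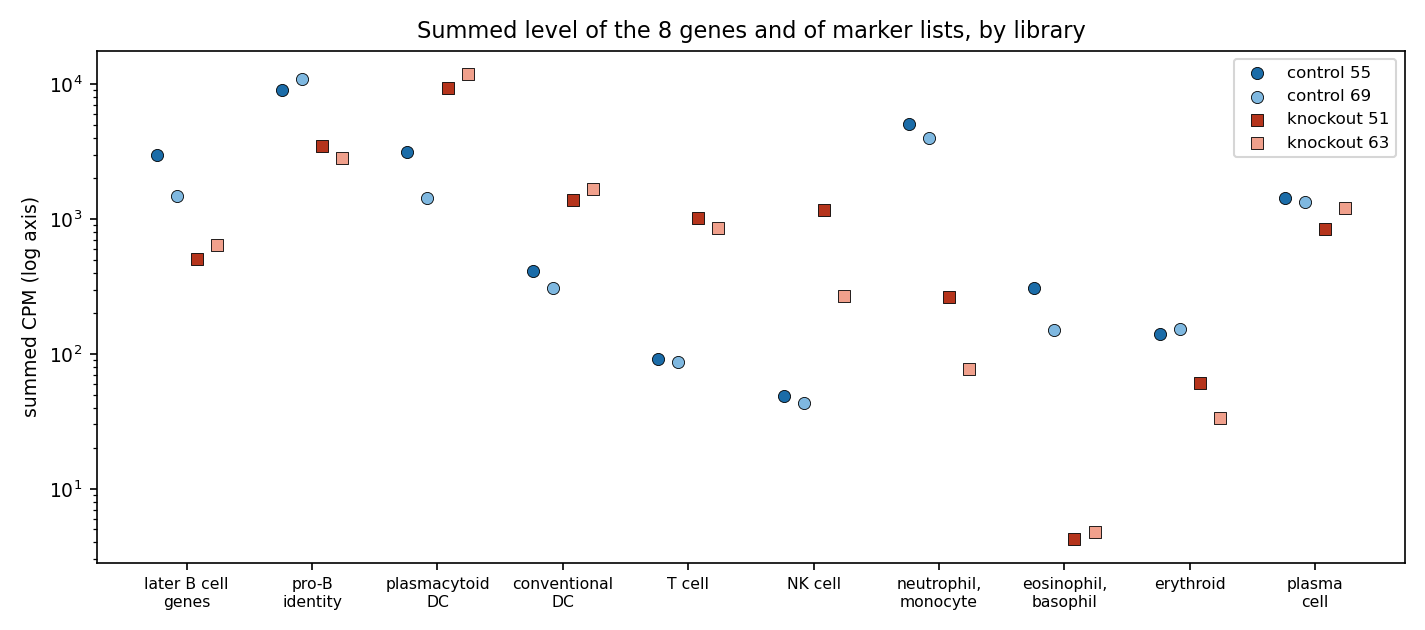
Summed CPM (log axis) of the 8 genes and of 9 marker lists in each library, controls as circles and knockouts as squares. The sum of the 8 genes falls from 2993 and 1478 CPM in controls 55 and 69 to 509 and 647 CPM in knockouts 51 and 63, while plasmacytoid dendritic cell (DC) markers rise.

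Of the 14 pro-B identity genes 8 fell and 0 rose, and the 8 genes were also set against Cd79b and Cd79a, the signalling chains of the antigen receptor, which B-lineage cells express from the pro-B stage on. This description was chosen after the values were seen and carries no test. Cd79b measured 1415 CPM in control 55, 974.9 in control 69, 216 in knockout 51 and 194 in knockout 63, and Cd79a measured 658 and 624 against 180 and 185 CPM. Relative to Cd79b, 3 of the 8 genes (Ms4a1, Cr2 and Fcer2a) had both controls above both knockouts, 4 overlapped, and Cd37 was higher in both knockouts. The ratio of Ms4a1 to Cd79b was 0.445 and 0.176 in the controls and 0.0213 and 0.154 in the knockouts, and that of Cd22 was 0.282 and 0.176 against 0.231 and 0.421. Relative to Cd79a, 4 of the 8 (Ms4a1, Cr2, Cd55 and Fcer2a) had both controls above both knockouts, 3 overlapped, and Cd37 was again higher in the knockouts, at 1.88 and 2.08 against 1.22 and 1.02. Fcer2a to Cd79a was 0.151 and 0.0272 in the controls and 0.00687 and 0.0145 in the knockouts. Cd55 was thus separated by genotype relative to Cd79a and not relative to Cd79b. In both genotypes Cre is expressed from the Cd79a locus, and how this bears on the Cd79a counts was not tested.

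**Figure D5:**
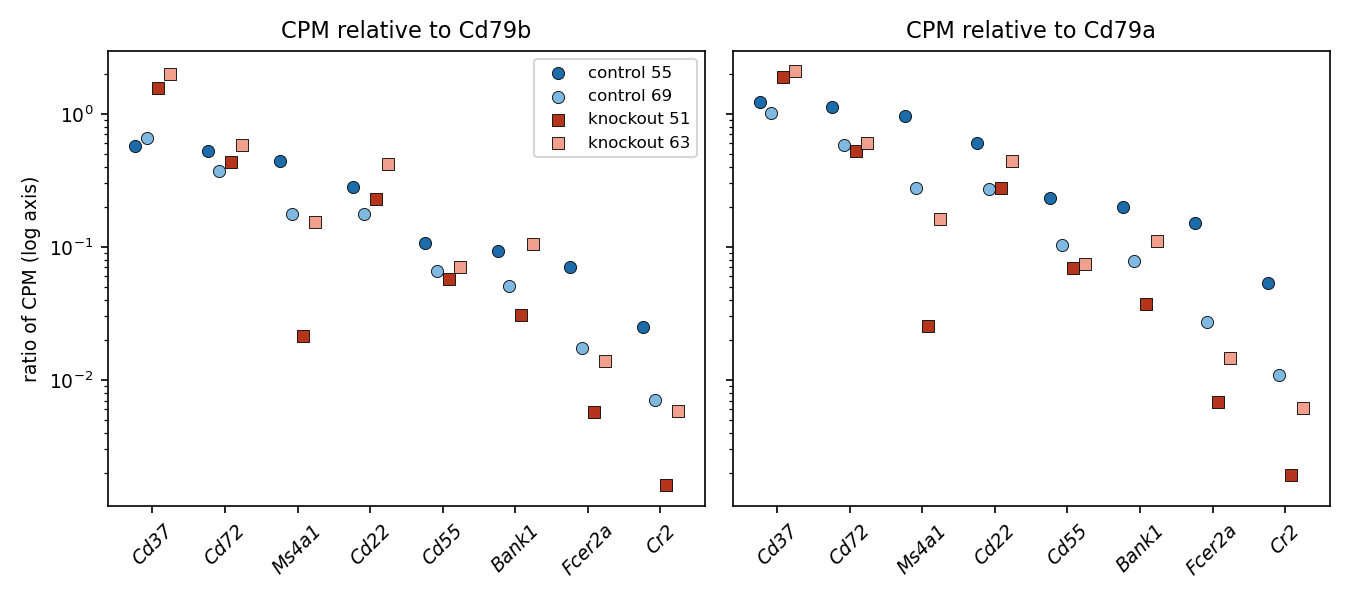
CPM of each gene divided by that of Cd79b (left) or Cd79a (right) in the same library, on a log axis, controls as circles and knockouts as squares. Against Cd79b the genotypes overlap for 4 genes, and for Cd37 both knockouts (1.57 and 1.98) lie above the controls (0.569 and 0.654).

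The counts in the lists that follow stand against 10.9% lower and 11.3% higher among all genes tested, and a share near these is not a result about a list. Of 26 genes of proximal antigen receptor signalling, 10 fell, 4 rose and 12 did not pass by edgeR, with a median log2 fold change of -0.35 (-0.08 without control 55 and -0.53 without control 69). Without knockout 51 or without knockout 63 the counts were 5 and 2 in each case. Cd79b and Cd79a fell by 2.54 and 1.81 on the log2 scale, and Syk, a kinase of this pathway, fell by 1.51. The call on Syk was lost without knockout 51, at -1.45, and without knockout 63, at -1.56. Cd81, which joins CD21 in its coreceptor complex, measured 89.8 CPM in control 55, 131 in control 69, 60.7 in knockout 51 and 44.0 in knockout 63, a log2 fold change of -1.08 with an adjusted p of 0.0361 by edgeR, or 0.146 without knockout 63. Fyn, a SRC family kinase also used in T and NK cells, rose from 132 ± 1.103 to 663 ± 28.9 CPM.

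Of 16 inhibitory receptor and phosphatase genes, 4 fell, 2 rose and 10 did not pass by edgeR, with a median of -0.45 (-0.17 without control 55). The share that rose was thus near that of all genes. The count of higher genes was 1 without knockout 51 or without knockout 63. Siglecg, the close relative of Cd22 on B cells, fell from 613 ± 225 to 128 ± 23.3 CPM, which the fit put at -2.26 ± 0.31 next to -2.12 ± 0.46 for Cd22 on the log2 scale. The adaptor gene Dok3 fell from 479 ± 93.4 to 17.1 ± 2.04 CPM, and Fcrl1, an Fc receptor-like gene, from 49.7 ± 33.8 to 5.93 ± 0.477 CPM. Lair1, an inhibitory collagen receptor gene that is also on the plasmacytoid list, rose: it measured 45.9 CPM in control 55, 10.3 in control 69, 341 in knockout 51 and 492 in knockout 63. Ptpn6, which encodes SHP-1, the phosphatase that CD22 and CD72 recruit, measured 640 CPM in control 55, 298 in control 69, 588 in knockout 51 and 728 in knockout 63 and did not pass (adjusted p of 0.39 by edgeR). Without control 55 it passed with a log2 fold change of 1.17 (adjusted p of 0.017). Sema4d, a ligand of CD72, rose from 147 ± 0.431 to 473 ± 5.68 CPM, with an adjusted p of 0.00497.

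Of 8 tested MS4A genes other than Ms4a1, 2 fell (Ms4a2 and Ms4a3, known from basophils and myeloid precursors), 2 rose (Ms4a4b and Ms4a6c) and 4 did not pass by edgeR, with a median log2 fold change of 0.12, which turned to -0.54 without knockout 51 and was 0.035 without control 69. The call on Ms4a4b was lost with limma-voom (adjusted p of 0.141). Of 20 tested tetraspanin genes other than Cd37, 6 fell and 3 rose, with a median of -0.26 that turned to 0.17 with the stricter filter and 0.18 with the authors' normalized values, where fewer of the genes were tested. The counts were 2 and 2 without knockout 51 and 1 and 1 without knockout 63. Cd63 fell from 18.4 ± 3.36 to 1.05 ± 0.646 CPM and Tspan31 rose from 31.9 ± 9.69 to 97.3 ± 16.7 CPM, whereas Cd53, which with Tspan13 was the most abundant of the list, was at 353 ± 84.2 and 461 ± 61.0 CPM and did not pass. Of 8 Siglec genes other than Cd22, 3 fell and 1, Siglech, rose, with a median of -1.39, or 2 and 1 without control 69 or without knockout 51 and 1 and 0 without knockout 63. Among 10 tested complement receptors and regulators other than Cr2 and Cd55, Itgam and Cd93 fell, Itgax and Itgb2 rose, and 6 did not pass, with a median of -0.70 (-0.16 without control 55 and -1.12 without control 69). Without knockout 51, 4 fell and 2 rose, and 3 fell and 2 rose without control 69 or without knockout 63.

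Of 28 other genes of later B cells, 10 fell, 6 rose and 12 did not pass by edgeR, with a median log2 fold change of -0.23, which turned to 0.15 without control 55 and was -0.66 without control 69 and -0.53 without knockout 63. The median ratio of control 55 to control 69 was 1.998 in this list, and 25 of 28 were higher in control 55. Without control 55, 10 fell and 10 rose, and without knockout 63, 9 fell and 2 rose. Cd1d1, a lipid-presenting molecule gene, fell from 101 ± 5.97 to 23.0 ± 1.04 CPM, and Cd69, an activation antigen gene, from 684 ± 57.9 to 183 ± 30.8 CPM. Cd74, the invariant chain of class II presentation and the most abundant of the list, measured 1595 CPM in control 55, 727 in control 69, 1717 in knockout 51 and 1990 in knockout 63 and did not pass (without control 55 it passed at 1.38, adjusted p of 0.0185).

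Of 25 transcription factor genes of B cell stages, 14 fell, 3 rose and 8 did not pass by edgeR, with a median of -0.91. Without knockout 51, 9 fell and 3 rose, and without knockout 63, 7 fell and 2 rose. Pou2af1, a coactivator at octamer sites, fell from 1114 ± 155 to 83.7 ± 0.554 CPM and Bach2, a repressor of plasma cell fate, from 588 ± 169 to 72.2 ± 8.24 CPM. Irf8, a factor of B cells and dendritic cells, rose from 462 ± 204 to 3337 ± 704 CPM. Spib, shared by B cells and plasmacytoid dendritic cells, measured 1517 CPM in control 55, 691 in control 69, 633 in knockout 51 and 950 in knockout 63, so that the genotypes overlapped.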

How the data were processed

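RNA was measured in 4 libraries, 1 per mouse. Per the labels' protocols, total RNA was purified on RNeasy columns and a low input NEBNext kit made the libraries. The submitters' processing notes name STAR 2.7.4a, featureCounts, Subread 2.0.0 and DESeq2 and the builds GRCm38 and mm10. The annotation, strand setting and handling of multiply aligned reads are not given in the sources that were used, so overlapping genes (4930526L06Rik with Ms4a1, Tead2 with Cd37, Tesk1 with Cd72) cannot be told apart where they share bases.

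The authors deposited raw counts for 24411 gene symbols, and a normalized signal in which each count is multiplied by 1 factor per library. The counts went into edgeR 4.0.16 (R 4.3.3), where filterByExpr kept genes (minimum count 10, minimum total 15), TMM set the library scaling, and the comparison of genotypes used the quasi-likelihood F test without covariates, two-sided, with Benjamini-Hochberg adjustment over the 13507 genes tested and a threshold of 0.05. SE is the log2 fold change over the square root of F. Exact binomial 95% intervals of library ratios cover counting error only, as no molecular identifiers are described. Percentages of all genes past a library ratio use log2 CPM with a prior count of 2. Gene coordinates are from RefSeq (GRCm38.p6), and exon lengths are unions over GENCODE M21 (GRCm38). Alternatives used limma 3.58.1 (log2 of the authors' normalized values plus 1, and voom), DESeq2 1.42.0, other scalings and filters, sex as a block, and each library left out, where a lone library is assumed to vary like the others. The procedure was also run on simulated counts in which all genes shared 1 dispersion (0.063). That run does not cover genes that vary more than this between mice.

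The members, the 17 lists and the alternatives were chosen with earlier results of these data known. Named were all 8 members, up to 4 genes per list with the lowest adjusted p, the 2 of highest level, Tnpo3, the sort markers, and the 3 genes nearest each member in pattern. Cd81, Lyn, Plcg2, Itpr1, Itpr2, Itpr3, Notch2, Rbpj, Tcf3, Tcf12, Spi1, Pou2f1, Pou2f2, Cd3e, Cd3d, Cd3g and Cd55b (textbook link or likeness to a member) and Xist and Ddx3y (sex) were named after their values were seen. Some genes that this rule names, and levels of the members relative to 1 of them, are not reported here.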

Additional observations from a re-analysis of the deposited data

How the results depend on the processing

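For the 8 genes, 96 values under 12 alternatives each all kept a negative sign, and 87 also kept their side of the threshold; the other 9 missed it, 7 of them with a library left out and 2 with limma-voom (Cr2 at -4.76 and Fcer2a at -4.59). With 1 library left out, 3 to 8 of the 8 genes passed, and 1277 to 3229 genes in all, with the lowest count of members (3) and 1616 genes without knockout 51. With scaling by DESeq2 size factors, total counts, no filter or the stricter filter 8 of 8 passed. The count of 8 genes with both controls above both knockouts was 3 relative to Cd79b and 4 relative to Cd79a, both chosen after the data were seen. Of genes that did not pass, Plcg2 changed sign without control 55 (0.086) and without knockout 51 (0.024), within a range of -0.15 to 0.086, Spib without control 55 (0.23), within a range of -0.94 to 0.23, Tspan13 without control 55, within a range of -0.071 to 0.45, and Tcf12 without control 55 (0.18) and without knockout 51 (0.068), within a range of -0.38 to 0.18; the cause was not tested. The genotypes share no mouse numbers, so mice were not paired by number; with sex, read from the data, as a block, 8 of 8 passed and 4323 genes in all. With 14 and 34 counts in the knockouts, Cr2 is the gene whose level depth limits most.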

Other observations

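Genes with the most similar pattern over the 4 libraries were found by the Euclidean distance between log2 CPM profiles, each centred on its own mean, which over 4 libraries is a description. Cr2 and Fcer2a were each among the nearest genes of the other, at a distance of 0.36. Rbm24, an RNA-binding protein gene, was nearest to Cr2 (0.22) and among the nearest 3 of Ms4a1 and Fcer2a, and measured 43.9 CPM in control 55, 9.96 in control 69, 0.495 in knockout 51 and 1.76 in knockout 63. Klhl14, second for Fcer2a (0.39), measured 85.5 CPM in control 55, 21.0 in control 69, 1.31 in knockout 51 and 2.56 in knockout 63. Fcmr, the gene of the IgM Fc receptor, was nearest to Ms4a1 (0.69), at 242 and 112 against 3.17 and 14.5 CPM. The B cell survival receptor gene Tnfrsf13c was nearest to Cd22 (0.18), at 225 and 104 against 32.0 and 44.9 CPM. Pik3c2b, a lipid kinase gene, was nearest to Cd55 (0.09), at 119 and 53.4 against 9.68 and 11.3 CPM. Ccr7 and Siglecg were among the 3 nearest to Cd72 (0.23 and 0.24), behind Pgpep1l (0.17), at 1.22 and 0.639 against 0.124 and 0.166 CPM. Crisp3 (0.29), also at a low level, and the erythroid marker Alas2 (0.36) were among the 3 nearest to Bank1. Kdm3a was among the 3 nearest to Cd37 (0.07). The nearest genes were thus not all B cell genes, and not all of them are named here.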
